A study of Mus musculus with 15 samples.

Results

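Cathepsins are the proteases of the lysosome, and the vacuolar ATPase (V-ATPase) is the proton pump that acidifies it. The genes of both were followed in primary mouse lung fibroblasts given combinations of IL-33, IL-13 and IL-17A. Members were the protein-coding genes whose symbol is Cts followed by 1 letter, or begins with Atp6v. This rule found 31 of 18078 genes in the files, of which 14972 are protein-coding: 13 cathepsins and 18 V-ATPase subunits. The rule used no measured value. The symbols leave out the V0 subunit Tcirg1 and several accessory proteins, which are given below as a separate list.

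Cathepsins are made as inactive precursors and are cut to their active form in acid endosomes and lysosomes. Most are cysteine proteases (Ctsb, Ctsc, Ctsf, Ctsh, Ctsk, Ctsl, Ctso, Ctss, Ctsw and Ctsz), Ctsd and Ctse are aspartic proteases, and Ctsa is a serine carboxypeptidase that also protects other lysosomal enzymes. Some, among them Ctsk, Ctss and Ctsl, also cut collagen or elastin outside the cell, and fibroblasts and macrophages of the lung both use them. The V-ATPase joins a cytosolic V1 part, which splits ATP, to a membrane V0 part, which carries protons. Several of its subunits exist as alternative isoforms that differ between tissues and compartments. Lysosomal genes of both kinds are known targets of the MiT/TFE transcription factors, such as Tfeb and Tfe3, which bind E-box sequences near gene starts.

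The 15 libraries came, 3 to a group, from cultures of wild-type BALB/cJ mice kept for 20 h without cytokine (untreated) or with IL-33, which was given alone, with IL-17A, with IL-13, or with both IL-13 and IL-17A (the triple combination). Damaged barrier cells release IL-33, a relative of IL-1; IL-13 drives type 2 responses through STAT6, and IL-17A belongs to type 3 immunity. No group received IL-13 or IL-17A without IL-33, so their effects were measured only on top of it. The labels give no animals, cultures or batches for the 3 libraries of a group, so the spread behind each p-value is that of the libraries and may be technical, and the replicate numbers below, given in accession order, only name libraries.

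The deposited TPM, reads scaled by gene length and by the library's total, divide reads by the whole span of a gene, introns included. Multiplying back gave whole reads, within 0.02, for 89.8% to 91.3% of the low values checked in a library, and totals of 10554596 to 15123269.7 recovered reads per library. Within a gene the span is the same in every library, so groups are compared on the deposited TPM. Such comparisons still depend on the scaling between libraries, and calls under other scalings are given below. Levels of different genes are compared here per exonic length, which counts each base that lies in any annotated exon of the gene. The label was checked against markers. All 12 listed fibroblast markers were measured, with Col1a1 at 6107 ± 630.0 TPM (SD, n = 3) in untreated cultures, but so were 19 of 20 listed macrophage markers, with Lyz2 at 10299 ± 184 TPM and Cd68 at 2538 ± 109 TPM. The cultures therefore did not carry fibroblast RNA alone, and which cells the members' RNA came from cannot be told apart in these bulk libraries, nor can fewer cells of a type be told from less RNA per cell. Between untreated and triple-combination cultures, the summed macrophage markers went from 20266–20668 TPM to 18157–18999 TPM and the summed fibroblast markers from 14849–16301 TPM to 10087–10566 TPM. Single markers went both ways. At an adjusted p under 0.05 (limma), 3 of 12 fibroblast markers were higher and 9 lower. Of 18 tested macrophage markers, 3 were higher and 11 lower, against 12.6% and 30.1% of all genes. The deposited values cover only genes above 0 in some library, so a marker without reads is missing from them. None of the 5 listed lymphocyte markers was measured, and 2 of the 5 listed neutrophil markers were. The 2 measured neutrophil markers, S100a8 and Csf3r, summed to 22.0–28.6 TPM untreated, 62.3–83.0 TPM with IL-33 and 115–154 TPM with the triple combination, while Csf3r itself was lower with IL-33 (-0.45) and S100a8 higher (1.89). Markers of epithelium summed to 1.61 to 8.32 TPM and those of endothelium to 2.16 to 3.04 TPM. The markers' part in the results was not tested. A set of 6 libraries had a lower share of mitochondrially encoded RNA (3.50% to 3.87% of TPM, where the 9 others had 4.77% to 6.14%): every library with IL-13 added to IL-33, libraries 2 and 3 of the group with IL-17A added to IL-33, and library 1 of the triple combination. Since no IL-33 library belongs to this set and every IL-33 with IL-13 library does, the set and IL-13 cannot be told apart in that comparison, other than through a term for the set fitted from the mixed groups.

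Sequence around the gene starts was read to see which members carry the E-box that MiT/TFE factors bind. RefSeq start windows on GRCm38.p6 (250 bases before to 50 after a start) were held for 21 of the 31 members. A RefSeq start can lie inside the gene span used elsewhere here, as for Atp6v0e, whose span begins at chr17:26663231. Windows therefore do not always cover the outer start of a gene. The palindrome CACGTG, which reads the same on both strands, was in 8 of these 21 genes (38.1%), against 11.8% of the 9791 tested genes with a window and 7.15% of all 32851 windows. The longer TCACGTGA, whose matches each contain a CACGTG match, was in 5 of 21 (23.8%), against 2.28% of tested genes. Each match is printed 5′ to 3′ on the gene's strand with CACGTG in capitals, and the position is that of its first base, counting the start as 0.
Ctsd, position -245, chr7:142388057-142388077, minus strand: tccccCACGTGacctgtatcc
Ctsd, position -98, chr7:142387910-142387935, minus strand: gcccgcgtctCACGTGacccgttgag
Ctsa, position -12, chr2:164833751-164833776, plus strand: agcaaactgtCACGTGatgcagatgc
Ctsa, position 5, chr2:164833768-164833793, plus strand: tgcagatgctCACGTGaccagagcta
Ctsf, position -79, chr19:4855076-4855101, plus strand: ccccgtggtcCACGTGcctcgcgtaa
Ctsl, position -236, chr13:64370741-64370766, minus strand: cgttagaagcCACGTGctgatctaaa
Atp6v0b, position -36, chr4:117887350-117887375, minus strand: gcgcgggggtCACGTGgggtcggcgc
Atp6v0b, position -18, chr4:117887332-117887357, minus strand: gtcggcgcatCACGTGcgccggtcag
Atp6v0d1, position -3, chr8:105566052-105566077, minus strand: ctactgcggtCACGTGagacgcggtg
Atp6v0e, position 3, chr17:26676389-26676414, plus strand: gcgcgccgatCACGTGagcctctgtt
Atp6v1a, position -131, chr16:44139375-44139400, minus strand: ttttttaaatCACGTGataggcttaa

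The genes with this E-box did not move as a block. In the triple combination against untreated, 1 of the 8 was higher (Ctsl) and 4 were lower (Atp6v1a, Ctsa, Ctsd and Ctsf), against 4 higher and 3 lower of the 12 tested members with a window and no match, and 12.6% higher and 30.1% lower of all genes. Of the 4 lower ones, only Ctsf was also lower with median-ratio scaling and on recovered reads. A STAT6-type palindrome (TTC and GAA with any 4 bases between them, the same on both strands) was in the window of 1 of 21 members (Atp6v0e2, 4.76%), against 6.45% of tested genes. A pair of members that moved in opposite directions in both comparisons that add IL-13, Ctsk and Atp6v0a1, have windows with none of these motifs. The Atp6v0a1 window lies inside the gene, whose span begins at chr11:101009452, so sequence before that outer start was not read. The 250 bases before the RefSeq starts of both genes are given for reference.
Ctsk, chr3:95498960-95499209, plus strand: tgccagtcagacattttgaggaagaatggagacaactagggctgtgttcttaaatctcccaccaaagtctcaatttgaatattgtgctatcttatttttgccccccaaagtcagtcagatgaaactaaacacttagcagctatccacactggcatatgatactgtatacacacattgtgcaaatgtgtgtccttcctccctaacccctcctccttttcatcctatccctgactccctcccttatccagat
Atp6v0a1, chr11:101010148-101010397, plus strand: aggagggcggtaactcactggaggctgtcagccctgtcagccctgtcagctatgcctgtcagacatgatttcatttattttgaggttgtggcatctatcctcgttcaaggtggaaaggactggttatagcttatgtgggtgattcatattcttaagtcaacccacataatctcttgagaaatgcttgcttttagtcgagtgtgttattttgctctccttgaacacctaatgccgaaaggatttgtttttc

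Cathepsin RNA was abundant. The 13 genes made up 0.942% to 1.05% of TPM in a library and the V-ATPase subunits 0.185% to 0.217%. Per exonic length, Ctsd led the cathepsins with a mean of 7626 over all 15 libraries, on a scale with the same total in each library. Ctsb followed at 2799, Ctss at 1836, Ctsz at 1440.5, Ctsa at 700.0 and Ctsl at 619. Ctsc at 195 and Ctsk at 169 formed a middle group, Ctsh (44.2), Ctsf (32.5) and Ctso (21.2) were lower, and Ctse (3.29) and Ctsw (0.872) were close to the limit of detection. Ctsw, a protease of cytotoxic lymphocytes, rested on 2 to 11 reads per library and Ctse on 19 to 78. Scaling by span places genes with long introns too low: Ctss had rank 6 among the cathepsins on the deposited TPM and rank 3 per exonic length. The exonic length was 1358 bases for Ctss, 1441 for Ctsz, 4715 for Ctsa and 6489 for Ctsl. Genes with many annotated exon bases are placed lower by it, so the order of genes depends on this length. Lengths of single transcripts were not tried.

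Among the V-ATPase genes, the levels per exonic length showed one leading isoform for most subunits. The subunit d isoform Atp6v0d1 was at 436 and Atp6v0d2 at 19.5. For subunit G, the values were 405 for Atp6v1g1 and 0.951 for Atp6v1g2, the neuronal isoform. The catalytic subunit Atp6v1a was at 271 and its partner Atp6v1b2 at 165, the proton-carrying ring subunits Atp6v0b and Atp6v0c at 271 and 118, and the a-subunits Atp6v0a1 and Atp6v0a2 at 153 and 75.8. Atp6v0a4, the kidney isoform, had 0 to 4 reads per library and was the only member left out by the filter of 1 TPM in at least 3 libraries, which 13887 of all genes passed. Of the other 30, Ctse passed only through its 3 untreated libraries.

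**Figure D1:**
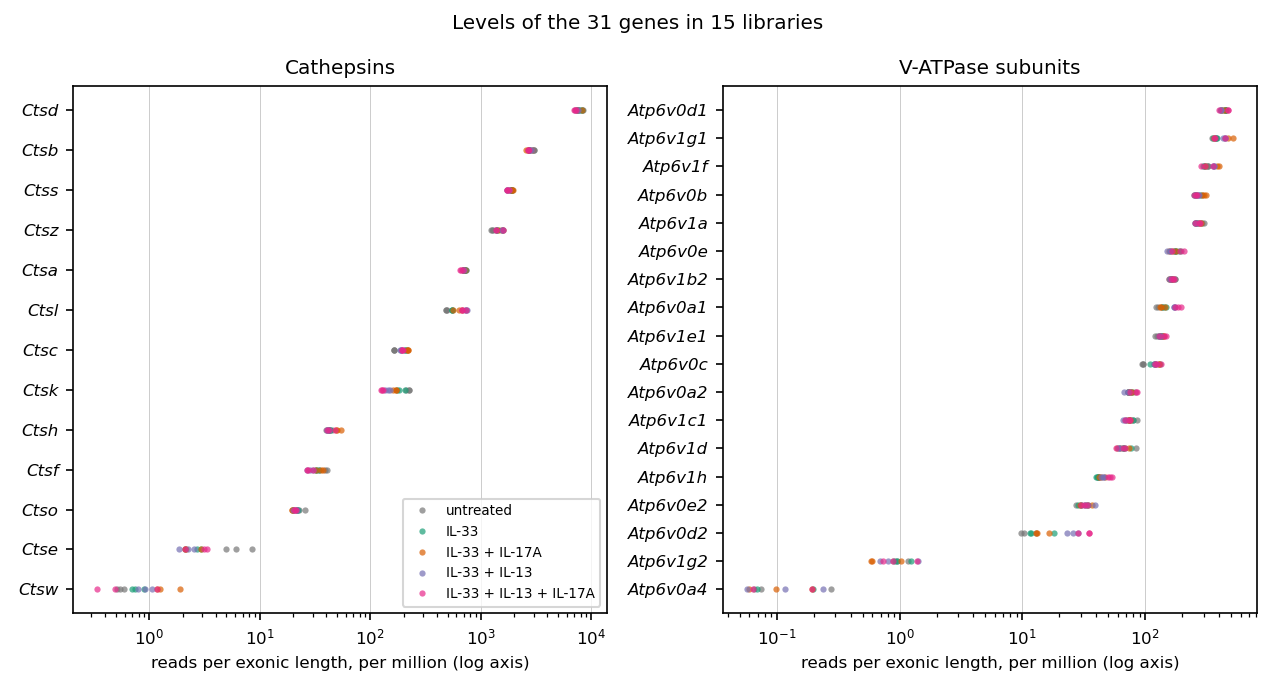
Level of each of the 31 members per exonic length (x axis, log scale, the same total in each library) with 1 point per library, coloured by group; libraries with no read are not drawn. Ctsd lies highest among the cathepsins and Atp6v0d1 among the V-ATPase subunits, while Ctse, Ctsw, Atp6v1g2 and Atp6v0a4 lie at the low end.

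In the comparisons, members were called at an adjusted p under 0.05 over all genes tested, with differences on the log2(TPM + 1) scale. With IL-33 against untreated, 2 of 30 members were higher and 5 lower, against 5.92% higher and 8.28% lower of all genes, together 14.2%. Adding IL-17A to IL-33 raised 1 and lowered none (all genes 3.54% and 6.22%, together 9.76%). Adding IL-13 to IL-33 gave 4 higher and 6 lower (10% and 22.4%, together 32.4%). On top of IL-33 and IL-13, IL-17A gave 1 higher and none lower (3.4% and 4.05%, together 7.45%). In these comparisons of IL-17A, 8 and 6 members had an unadjusted p under 0.05, and recovered reads gave 6 and 3 higher calls and none lower, where all genes had 6.45% and 6.21% higher and 6.36% and 5.71% lower. On top of IL-33 and IL-17A, IL-13 gave 3 higher and 7 lower (6.7% and 9.14%, together 15.8%). The triple combination against untreated gave 7 higher and 10 lower (12.6% and 30.1%, together 42.7%). For the interaction between IL-13 and IL-17A no member passed by limma on TPM, where 10 members had an unadjusted p under 0.05 and limma-voom on recovered reads called 1 higher and 4 lower. On TPM, 0.158% of all genes were higher and 0.18% lower (together 0.338%), and on recovered reads 4.5% and 5.57%. With 30 members, differences from these shares rest on a few genes each. The 5 lower calls with IL-33, for example, became 2 (6.67% of members) with median-ratio scaling, against 6.32% of all genes. Ctse, which passed the filter only through the group where it is high, is 1 of the lower calls against untreated.

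By family, each of the 13 cathepsins passed in at least 1 comparison, and 7 of 17 V-ATPase subunits did, where 56.2% of all genes tested passed in at least 1. With median-ratio scaling these counts were 9 and 10, against 53.5%. Ctse is counted in both scalings only through its 2 comparisons against untreated. It met the filter through the untreated libraries alone, so its place in these counts supports nothing. The triple combination gave 3 higher and 8 lower cathepsins, Ctse among the lower, and 4 higher and 2 lower V-ATPase subunits. The medians were -0.17 and 0.01, against -0.10 for all genes tested. The deposited scaling bears on the small falls. Median-ratio scaling moved the median of all genes in this comparison from -0.10 to 0.00 (log2), and the members' split from 7 higher and 10 lower to 9 higher and 3 lower, where 19.7% and 19.1% of all genes were then called. It also moved the split for IL-33 from 2 and 5 to 3 and 2 (all genes 7.8% and 6.32%), for IL-13 added to IL-33 from 4 and 6 to 7 and 1 (16.2% and 15.1%), for IL-17A added to IL-33 from 1 and 0 to 3 and 0 (4.93% and 4.65%), and for IL-17A added to IL-33 and IL-13 from 1 and 0 to 3 and 1 (4.25% and 4.21%). In all of TPM, median-ratio scaling and recovered reads, the triple combination had higher Atp6v0a1, Atp6v0c, Atp6v0d2, Atp6v1h, Ctsc, Ctsl and Ctsz and lower Ctsf and Ctsk, besides Ctse with the limit on its filter.

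**Figure D2:**
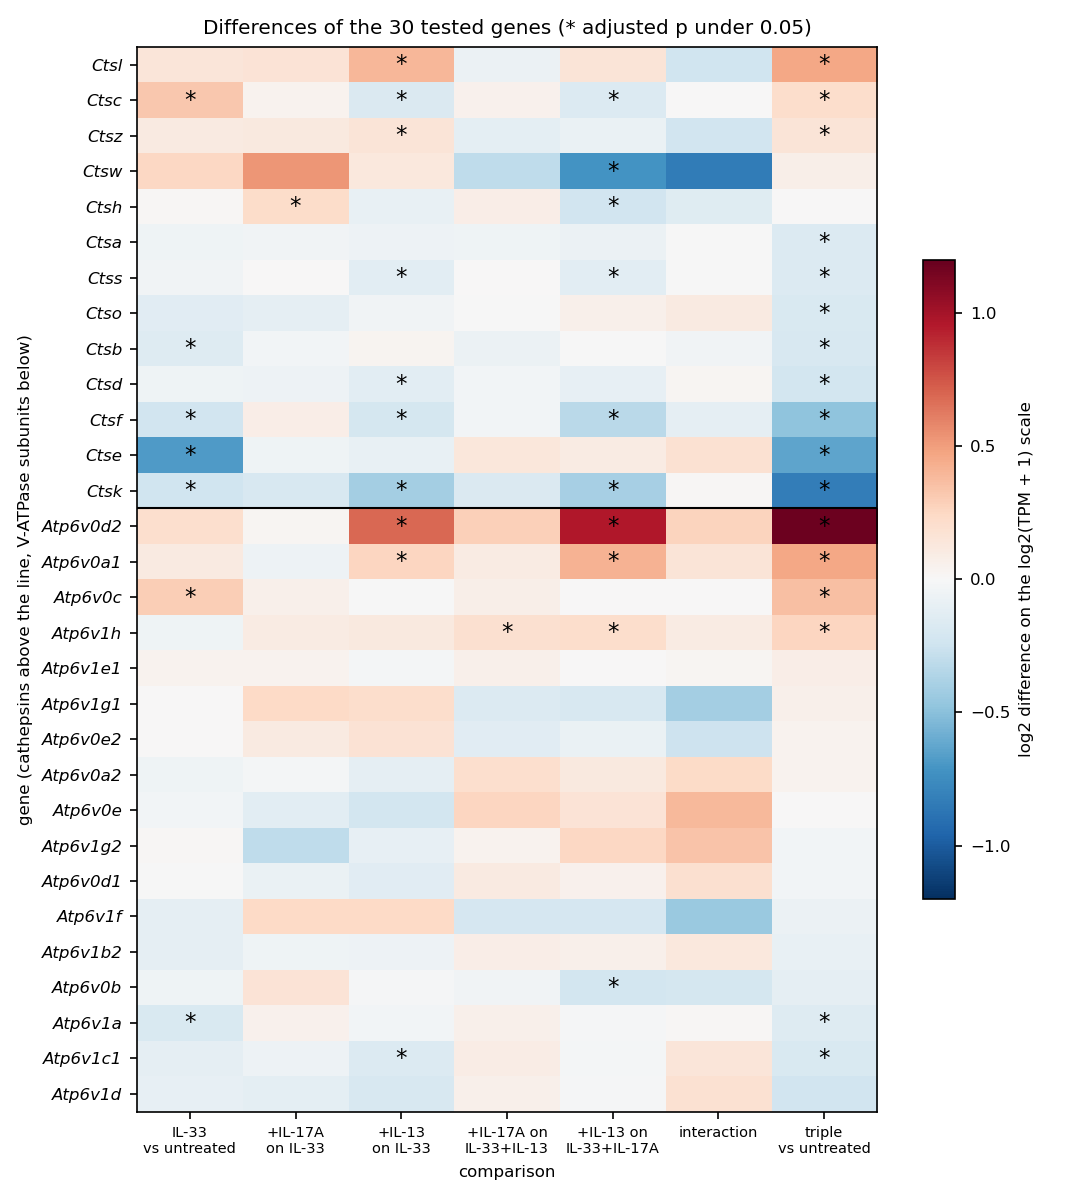
Heat map of the difference of each of the 30 tested members (rows, cathepsins above the line) in the 7 comparisons (columns), coloured on the log2(TPM + 1) scale, red for higher and blue for lower, with an asterisk where the adjusted p was under 0.05. Among the cells with an asterisk, Atp6v0d2 in the triple combination is the deepest red (1.18) and Ctsk in the same comparison the deepest blue (-0.83), and 10 of the 17 V-ATPase rows have no asterisk.

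Ctsk, the collagen-cutting cathepsin best known from osteoclasts and also made by fibroblasts, was highest in untreated cultures and lowest in the triple combination. It lies at chr3:95499256-95509362 (mm10), with Ctss beginning 17423 bases after its end. Untreated libraries had 102, 97.0 and 104 TPM, IL-33 libraries 78.8, 82.8 and 94.99, and libraries with IL-33 and IL-17A 77.2, 71.1 and 75.9. With IL-33 and IL-13 the values were 64.9, 60.2 and 67.5, and with the triple combination 54.9, 56.9 and 58.0. Every triple-combination library was below every library of the other groups, and the untreated ones were above all others. The mean fell by 44.1%, from 101 ± 3.69 to 56.6 ± 1.56 TPM, a difference of -0.83 ± 0.07 (SE, adjusted p = 5.9e-07, limma). The part of IL-33 alone was -0.24 ± 0.07 (adjusted p = 0.026), a call kept in 2 of 6 fits that left out a library (adjusted p up to 0.11). IL-13 lowered it by a similar amount on both backgrounds, by -0.41 ± 0.07 over IL-33 (adjusted p = 0.00082) and by -0.39 ± 0.07 over IL-33 and IL-17A (adjusted p = 0.0015). The term for the low-mitochondrial set left -0.34 for the first (adjusted p = 0.045) and -0.42 for the second (adjusted p = 0.0017). The differences with IL-17A, of -0.19 and -0.18, did not pass, although the groups did not overlap.

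Ctsl, a cysteine protease with broad lysosomal and extracellular targets, moved the other way. Its TPM (chr13:64359337-64370890) were 833, 833 and 867 in untreated, 927, 927 and 945 in IL-33, and 957, 1136 and 1059 in IL-33 and IL-17A libraries. They were 1257, 1232 and 1197 with IL-33 and IL-13 and 1229.6, 1131 and 1146 with the triple combination. All libraries with IL-13 were above all untreated and IL-33 libraries. The triple combination was 1.38-fold over untreated, 0.47 ± 0.05 on the log2 scale (adjusted p = 1.6e-05). IL-13 added to IL-33 gave 0.40 ± 0.05 (adjusted p = 0.00021), or 0.24 with the set term (adjusted p = 0.0070). Over IL-33 and IL-17A, where the groups overlapped, it gave 0.16 (adjusted p = 0.067). This second difference passed as higher with the set term and on recovered reads. Outside the set, values were 957 TPM without IL-13 and 1131 and 1146 with it. Inside the set they were 1059 and 1136 without IL-13 and 1229.6 with it. The interaction of -0.24 ± 0.08 had an adjusted p of 0.096 on TPM and of 0.027 on recovered reads.

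Ctsc, or dipeptidyl peptidase 1, which activates serine proteases of granulocytes and mast cells, rose with IL-33 and was lower again with IL-13. Untreated libraries had 89.6, 88.9 and 89.7 TPM (chr7:88278085-88310888), IL-33 libraries 110.0, 115 and 112, and IL-33 with IL-17A 115, 116 and 116. IL-33 with IL-13 gave 99.7, 101 and 98.6, and the triple combination 102, 103 and 105, so that both groups with IL-13 lay between untreated and IL-33 without overlap. The rise with IL-33 was 1.26-fold, or 0.33 ± 0.03 (adjusted p = 2.4e-06). IL-13 gave -0.17 over IL-33 (adjusted p = 0.00052) and -0.17 over IL-33 and IL-17A (adjusted p = 0.00096); the first had an adjusted p of 0.076 with median-ratio scaling and 0.070 on recovered reads. The triple combination stayed higher than untreated, by 0.21 (adjusted p = 3.9e-05). Mcpt8, a protease of basophils, also went from 82.4–91.0 TPM untreated to 108–120 TPM with IL-33. It was the only 1 of 5 listed mast cell and basophil markers that was measured. The presence of such cells and their part in the Ctsc values were not tested.

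Ctsf, a cysteine protease with a long propeptide, had 108, 104 and 92.9 TPM untreated (chr19:4855130-4860918), 89.2, 84.3 and 85.5 with IL-33, and 84.5, 92.0 and 96.9 with IL-17A added. IL-33 with IL-13 gave 69.4, 74.6 and 79.4 and the triple combination 77.7, 70.5 and 69.4, so the groups with IL-13 were the lowest. The triple combination was lower than untreated by -0.48 ± 0.07 (adjusted p = 0.00015), and IL-13 lowered it over IL-33 and IL-17A by -0.32 ± 0.07 (adjusted p = 0.0082). Its calls for IL-33 (-0.23, adjusted p = 0.048) and for IL-13 added to IL-33 (-0.21, adjusted p = 0.038) were lost with median-ratio scaling (adjusted p = 0.24 and 0.30) and in 5 of the 6 fits that left out 1 library.

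Ctsh, an aminopeptidase that also processes surfactant protein, was the one member called when IL-17A was added to IL-33. Its TPM (chr9:90054152-90076089) were 25.2, 25.9 and 28.6 untreated, 26.6, 26.9 and 26.8 with IL-33, 31.1, 30.2 and 32.9 with IL-17A added, 26.2, 24.6 and 24.7 with IL-33 and IL-13, and 29.1, 25.8 and 24.96 with the triple combination. All IL-33 and IL-17A libraries were above all others. The difference over IL-33 was 0.22 ± 0.06 (adjusted p = 0.040). This call held in 1 of 6 fits without a library and not with the set term (0.15, adjusted p = 0.30). IL-13 over IL-33 and IL-17A gave -0.23 ± 0.06 (adjusted p = 0.023).

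Among the other cysteine cathepsins, Ctss, an elastin-cutting protease of antigen-presenting cells, had 270.0, 267 and 268 TPM untreated, 264, 259 and 258 with IL-33, 268, 255 and 261 with IL-17A added, 239, 234 and 244 with IL-33 and IL-13, and 234, 249 and 235 with the triple combination. Both groups with IL-13 lay below the other groups, by -0.12 over IL-33 (adjusted p = 0.010) and -0.13 over IL-33 and IL-17A (adjusted p = 0.014). The first of these was -0.04 with median-ratio scaling (adjusted p = 0.44). Ctsz, a carboxypeptidase, had 484, 471 and 500.2 TPM untreated, 526, 524 and 523 with IL-33, 548, 573 and 587 with IL-17A added, 583, 595 and 578 with IL-33 and IL-13, and 589, 517 and 517 with the triple combination. It rose by 0.16 ± 0.05 when IL-13 was added to IL-33 (adjusted p = 0.023), and the set term left 0.02 (adjusted p = 0.80). Among the triple-combination libraries the high one is replicate 1, the only one of the low-mitochondrial set.

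Ctsb, an abundant endopeptidase, had 2409.7, 2381 and 2357 TPM untreated (chr14:63122462-63145923) and 2134, 2114 and 2158 with IL-33. The other groups were close to the IL-33 level, at 1989, 2235 and 2054 with IL-17A added, 2244, 2153 and 2162 with IL-13 added, and 2091, 2067 and 2083 with both. The IL-33 difference was -0.16 (adjusted p = 0.011), and -0.10 with median-ratio scaling (adjusted p = 0.27). In the triple combination it was -0.20 (adjusted p = 0.00091), or -0.07 with median-ratio scaling (adjusted p = 0.33). Ctso, a little studied member, had 14.1, 16.6 and 14.8 TPM untreated and 13.1, 13.6 and 13.0 with the triple combination, with 12.4 to 14.2 in the other groups; its one call was the triple combination (-0.18, adjusted p = 0.026, or 0.44 with median-ratio scaling). Ctsw had 0.860, 0.982 and 0.920 TPM untreated, 1.48, 1.21 and 1.17 with IL-33, 3.09, 2.05 and 1.90 with IL-17A added, 1.74, 1.48 and 1.28 with IL-33 and IL-13, and 0.790, 1.93 and 0.554 with the triple combination. Its fall when IL-13 was added to IL-33 and IL-17A, -0.72 ± 0.20 (adjusted p = 0.031), compares 8 to 11 reads with 2 to 7 reads per library, and the groups overlap. Recovered reads gave it an adjusted p of 0.071.

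**Figure D3:**
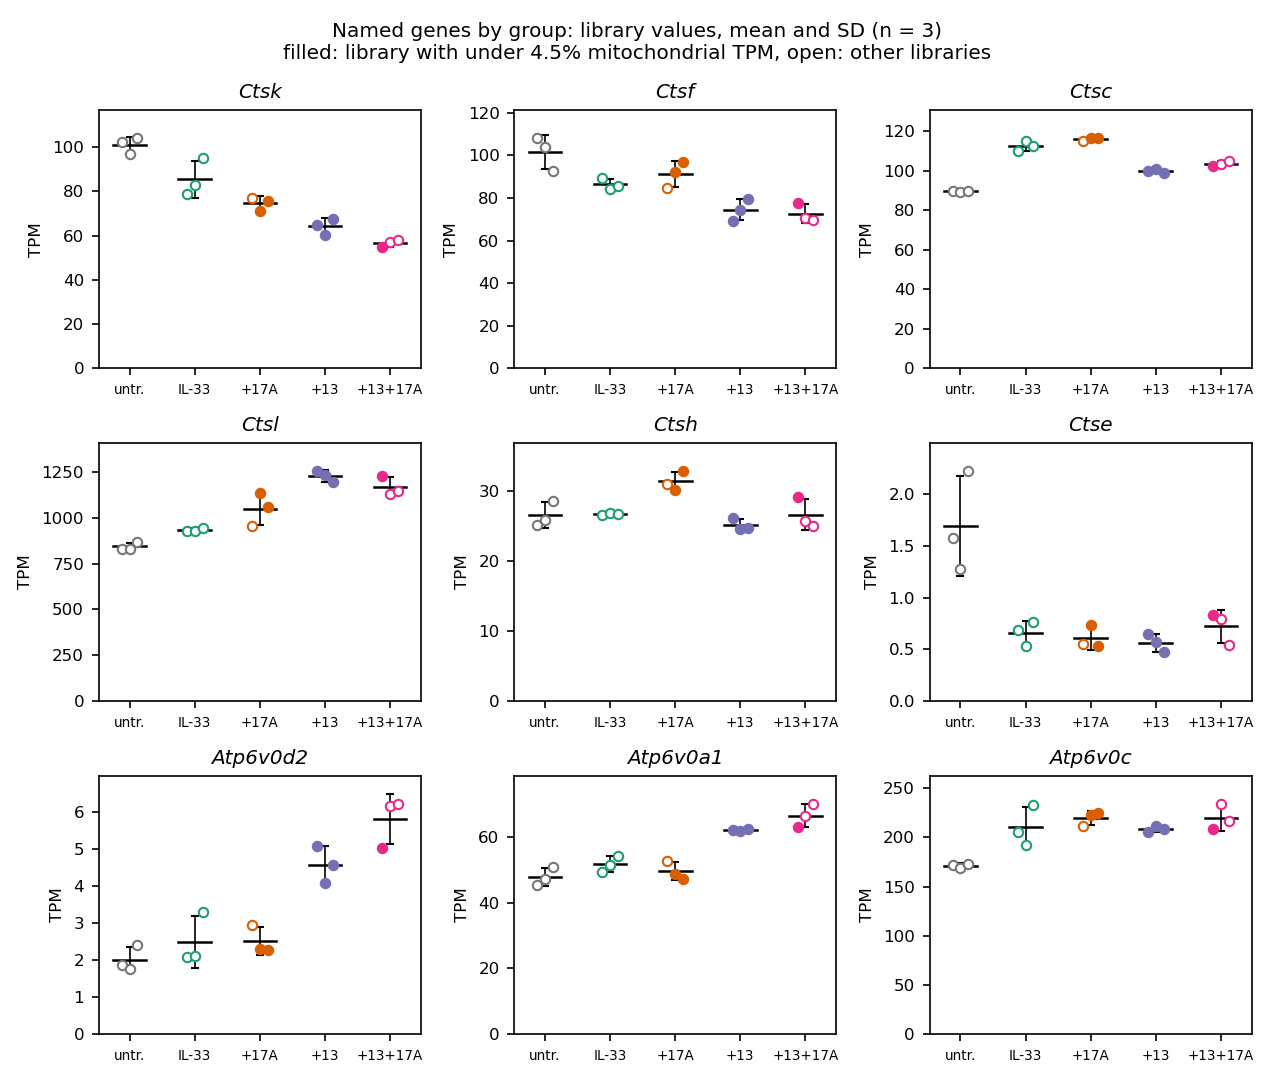
TPM of 6 cathepsins and 3 V-ATPase subunits in each library by treatment group (+17A, +13 and +13+17A are added to IL-33), with the group mean and SD (n = 3) and filled points for the 6 libraries of the low-mitochondrial set. Ctsk is at 97.0 to 104 TPM untreated and at 54.9 to 58.0 with the triple combination, Atp6v0d2 is higher in both groups with IL-13, and Ctse is high only in the untreated libraries.

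On the deposited TPM, Ctsd, the serine carboxypeptidase Ctsa and, with the limit on its filter, Ctse were lower in the triple combination. Ctse, an endosomal aspartic protease, had 1.58, 1.28 and 2.23 TPM untreated (chr1:131638306-131675505) and 0.691, 0.536 and 0.761 with IL-33. It had 0.549, 0.738 and 0.530 with IL-17A added, 0.648, 0.573 and 0.475 with IL-13 added, and 0.834, 0.794 and 0.541 with both. All untreated libraries were above all treated ones. IL-33 lowered it to 0.391 times the untreated mean, a difference of -0.68 ± 0.14 (adjusted p = 0.0051). Because it passed the filter of 1 TPM only through its 3 untreated libraries, it had to be lower elsewhere, and this p supports nothing. Ctsd, the main aspartic protease of lysosomes, had 4839, 4963 and 4633 TPM untreated (chr7:142375911-142388038), 4760.4, 4631 and 4498 with IL-33, 4322, 4719 and 4296 with IL-17A added, 4374, 4280.2 and 4087 with IL-13 added, and 4211, 4167 and 4037 with both. The triple combination lay below untreated by -0.22 (adjusted p = 0.0012), and -0.09 with median-ratio scaling (adjusted p = 0.28). Ctsa, chosen after its values were seen, had 1275 to 1301 TPM untreated and 1131 to 1189 with the triple combination (-0.16, adjusted p = 0.00020, or 0.52 with median-ratio scaling). Pltp, on the opposite strand at 96.6 TPM, overlaps it by 1515 bases.

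Among the V0 subunits, Atp6v0d2 had the largest difference of any member. It is the alternative subunit d known from osteoclasts and macrophages, where it takes part in cell fusion. Its TPM (chr4:19876841-19922605) were 1.87, 1.76 and 2.39 untreated, 2.07, 2.11 and 3.29 with IL-33, and 2.96, 2.30 and 2.27 with IL-17A added. They were 5.08, 4.08 and 4.58 with IL-33 and IL-13 and 5.03, 6.17 and 6.22 with the triple combination. Every library with IL-13 was above every library without it, at 219 to 297 against 71 to 149 reads. The triple combination was 2.89-fold over untreated, or 1.18 ± 0.14 on the log2(TPM + 1) scale (adjusted p = 2.4e-05). IL-13 raised it 1.84-fold over IL-33 (0.69 ± 0.14, adjusted p = 0.0034) and 2.31-fold over IL-33 and IL-17A (0.96 ± 0.14, adjusted p = 0.00059). The set term left 0.95 and 0.87 (adjusted p = 0.0072 and 0.0011). The IL-13 effect did not differ detectably with IL-17A present (interaction 0.27 ± 0.20, 95% interval -0.17 to 0.70, adjusted p = 0.40). Its paralog Atp6v0d1 (chr8:105524465-105566047) had 59.0, 59.8 and 57.8 TPM untreated, 58.8, 58.0 and 58.6 with IL-33, 57.9, 54.5 and 53.2 with IL-17A added, 53.4, 52.1 and 53.5 with IL-13 added, and 51.1, 61.0 and 60.5 with both, and passed in no comparison.

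The remaining V0 subunits singled out were chosen after their values were seen. Atp6v0a1, an a-subunit of the pump's proton channel, had 45.3, 47.3 and 51.0 TPM untreated (chr11:101009452-101063719), 49.5, 51.6 and 54.2 with IL-33, 52.8, 48.8 and 47.3 with IL-17A added, 62.1, 62.0 and 62.6 with IL-13 added, and 63.1, 66.4 and 70.2 with both. All 6 libraries with IL-13 were above the 9 without. IL-13 raised it by 0.26 ± 0.06 over IL-33 (adjusted p = 0.0047) and 0.42 ± 0.06 over IL-33 and IL-17A (adjusted p = 0.00033), and it was 1.39-fold over untreated in the triple combination. Atp6v0c, the ring subunit, had 172, 168 and 173 TPM untreated (chr17:24163866-24169702) and 193 to 234 in all treated libraries. IL-33 raised it 1.23-fold, or 0.29 ± 0.06 (adjusted p = 0.0058), and neither IL-13 nor IL-17A added a change that passed. A pseudogene, Atp6v0c-ps2, shares its sequence and could take or give reads. It had 169 to 509 TPM. Its 1 call was higher when IL-13 was added to IL-33 (0.73 ± 0.26, adjusted p = 0.048, limma). Sharing of reads between the 2 genes was not tested. Atp6v0b, the other ring subunit, had 591, 610.1 and 631 TPM with IL-17A added to IL-33. The triple combination gave 537, 510.0 and 527 (-0.22 ± 0.06, adjusted p = 0.028), a call held in 2 of 6 fits without a library. Atp6v0a2, Atp6v0e and Atp6v0e2 passed in no comparison.

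Tcirg1 (subunit a3) encodes the a-subunit of lysosomal and osteoclast pumps but is outside the symbol rule. It went the opposite way to Atp6v0a1. Its means were 122 ± 3.02 TPM untreated, 136 ± 1.51 with IL-33, 139 ± 4.32 with IL-17A added, 110.5 ± 3.14 with IL-13 added and 108 ± 4.78 with both. IL-13 gave -0.30 over IL-33 (adjusted p = 0.00017) and -0.37 over IL-33 and IL-17A (adjusted p = 4.2e-05). Per exonic length, Atp6v0a1 made up 42.7% of a-subunit RNA untreated, 43.6% with IL-33, 42.3% with IL-17A added, 52.0% with IL-13 added and 52.2% with both. Tcirg1 made up 31.7%, 33.3%, 34.6%, 26.8% and 24.6% in the same order, and Atp6v0a2 21.2% to 25.5%. The library shares of Atp6v0a1 were 51.4% to 53.0% with IL-13 added to IL-33 and 41.5% to 43.4% untreated. For subunit d, Atp6v0d2 made up 2.42% untreated, 2.996% with IL-33, 3.19% with IL-17A added, 5.90% with IL-13 added and 6.82% with both, so Atp6v0d1 stayed the main isoform throughout.

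**Figure D4:**
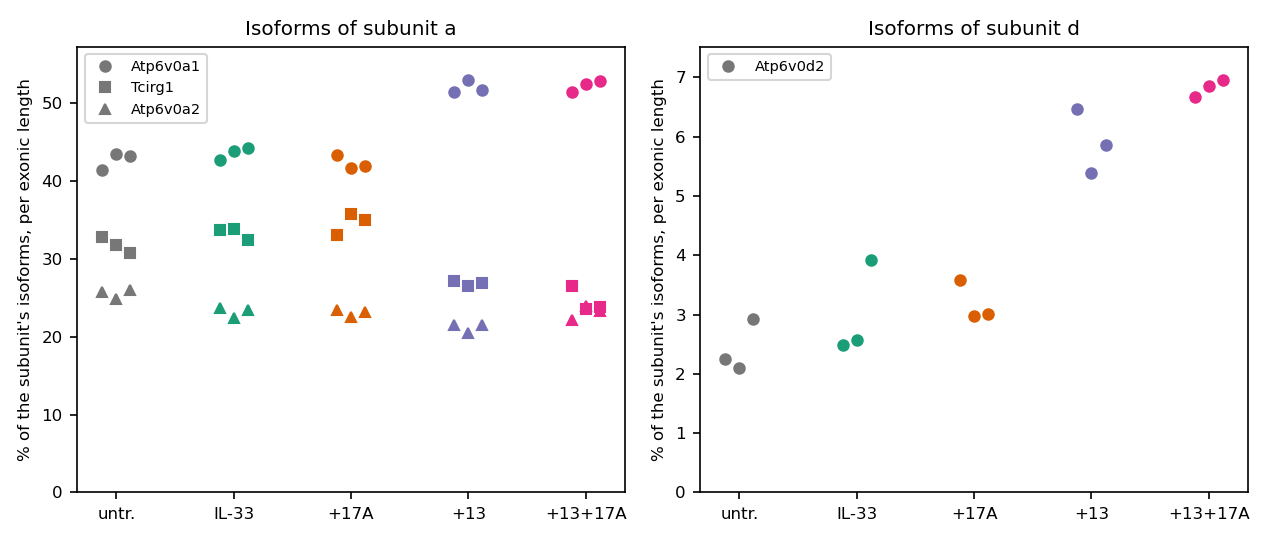
Share of each isoform in the RNA of its V-ATPase subunit (y axis, percent, per exonic length), with 1 point per library by treatment group, for subunit a (left) and for Atp6v0d2 within subunit d (right). In the groups with IL-13, Atp6v0a1 is at 51.4% to 53.0% and the share of Atp6v0d2 at 5.38% to 6.96%, against at most 3.92% for Atp6v0d2 in the other groups.

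Of the 9 tested V1 subunits, 3 passed in at least 1 comparison, and they were singled out after their values were seen. Atp6v1h, a regulatory subunit, had 13.4, 13.5 and 13.5 TPM untreated (chr1:5070018-5162529), 12.9, 12.6 and 13.4 with IL-33, 13.4, 13.8 and 14.8 with IL-17A added, 14.4, 13.8 and 14.2 with IL-13 added, and 15.5, 17.0 and 16.5 with both. The triple-combination libraries were above all others, by 0.26 ± 0.05 over untreated (adjusted p = 0.00062) and 0.21 over IL-33 and IL-17A (adjusted p = 0.0082). The rise of 0.19 ± 0.05 over IL-33 and IL-13 (adjusted p = 0.024) held in 1 of 6 fits without a library. The catalytic subunit Atp6v1a had 103, 96.7 and 100.5 TPM untreated and 86.1, 86.0 and 91.4 with IL-33 (-0.19, adjusted p = 0.018, or 0.083 with median-ratio scaling). Atp6v1c1, a stalk subunit, went from 45.3 ± 2.95 TPM untreated to 39.8 ± 2.34 with the triple combination (-0.18, adjusted p = 0.020, or 0.33 with median-ratio scaling). Atp6v1b2, Atp6v1d, Atp6v1e1, Atp6v1f, Atp6v1g1 and Atp6v1g2 passed in no comparison.

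Atp6v1g1 and Atp6v1f, both small V1 subunits, followed the low-mitochondrial set within groups. Among the IL-33 and IL-17A libraries, Atp6v1g1 had 209 TPM outside the set and 268 and 292 inside, and among the triple-combination libraries 252 inside and 209 and 209 outside. Atp6v1f had 351 outside against 438 and 451 inside, and 405 inside against 323 and 347 outside. The set term was 0.35 for Atp6v1g1 and 0.31 for Atp6v1f. It passed as higher for 4 members, these and Ctsl (0.15) and Ctsz (0.13), and as lower for Atp6v0e (-0.23) and Atp6v0d1 (-0.17), against 4.49% higher and 11.8% lower of all genes.

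The addition of IL-13 was measured on 2 backgrounds that share no library. In both, 6 of 30 members (20%) passed in the same direction, against 9.63% of all genes tested: Atp6v0a1 and Atp6v0d2 were higher, and Ctsc, Ctsf, Ctsk and Ctss lower. None passed in opposite directions. With median-ratio scaling Ctsc, Ctsf and Ctss no longer passed in both and Atp6v1h did, which left 4 members (13.3%) against 10.2% of all genes. Recovered reads gave 5 (16.7%) against 11.1%, and the set term gave 6 (20%) against 8.07%. Ctsl was higher in both comparisons in each of these 2 fits. Over all 30, 15 members (50%) had the same sign in both comparisons, against 59.5% of all genes. No member passed in both comparisons that add IL-17A, where 3.54% of all genes did.

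**Figure D5:**
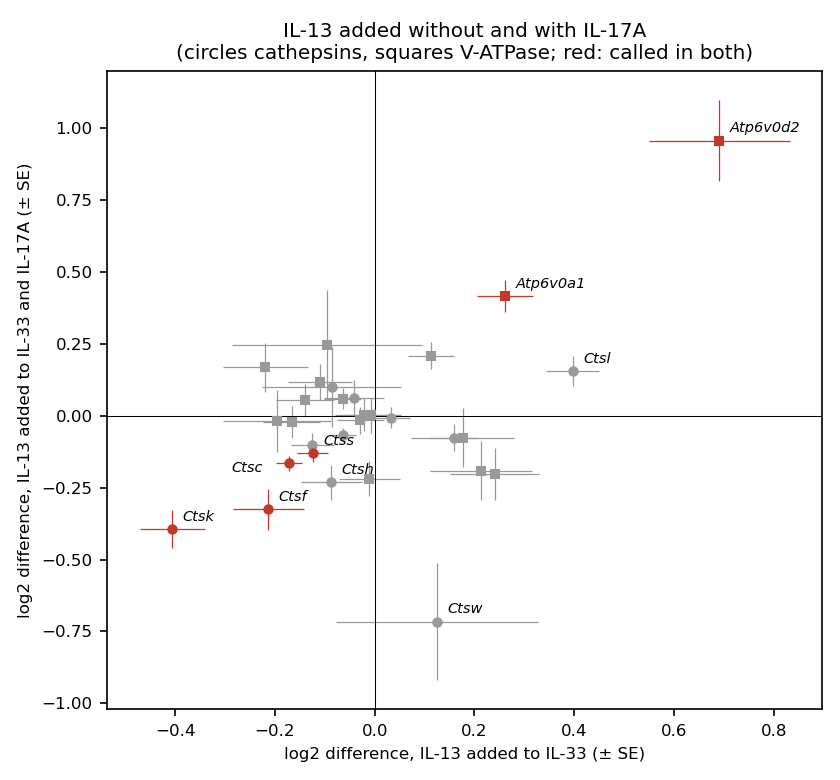
Difference with IL-13 added to IL-33 (x axis) against IL-13 added to IL-33 and IL-17A (y axis) on the log2(TPM + 1) scale for the 30 tested members, with bars of 1 SE and red points for the 6 members called in both. Atp6v0d2 and Atp6v0a1 lie at the upper right and Ctsk, Ctsf, Ctsc and Ctss at the lower left, while Ctsl and Ctsw were called in 1 of the comparisons.

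The proteins that work with these genes were read from lists, beside the shares of all genes. With IL-33, these were 5.92% higher and 8.28% lower. With IL-13 added to IL-33 they were 10% and 22.4%, or 16.2% and 15.1% with median-ratio scaling and 4.75% and 5.48% with the set term. Of the 15 tested V-ATPase partners (accessory proteins, assembly factors and Tcirg1), 2 were higher and none lower with IL-33, and 1 was higher and 7 lower when IL-13 was added to IL-33. The latter became 2 and 3 with median-ratio scaling and 0 and 1 with the set term. Rogdi, a RAVE-type assembly factor, went from 24.0 TPM with IL-33 to 18.4 with IL-17A added (-0.38), and the large RAVE-type proteins Dmxl1 and Dmxl2 had -0.35 and -0.30 when IL-13 was added to IL-33, or -0.07 and -0.10 with the set term, where neither passed.

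Some cathepsin inhibitors had far larger differences than any member. Of 11 tested, 4 were higher and none lower when IL-13 was added to IL-33, and 5 and none when it was added to IL-33 and IL-17A. The counts were 5 and 0 in both with median-ratio scaling and 4 and 0 in both with the set term, and recovered reads gave 5 and 0, and 5 and 1. Of all genes, IL-13 on top of IL-33 and IL-17A gave 6.7% higher and 9.14% lower. These were 8.5% and 8.35% with median-ratio scaling, and 6.79% and 10.8% with the set term. Recovered reads gave 17.1% and 17% over IL-33, and 9.69% and 9.33% over IL-33 and IL-17A. For the inhibitors, IL-33 gave 2 higher and 5 lower (3 and 3 with median-ratio scaling, against 7.8% and 6.32% of all genes). Serpina3g, a serpin of the alpha-1-antichymotrypsin family that can block cysteine cathepsins, had means of 14.2 TPM untreated, 82.9 with IL-33, 157 with IL-17A added, 574 with IL-13 added and 809.6 with both. It was higher with IL-33 (2.46), with IL-17A added (0.91) and with IL-13 added (2.78); its family has near-identical copies that could share reads. Serpinb1a, an inhibitor of neutrophil-type proteases, had 33.3, 22.2, 15.9, 60.7 and 49.3 TPM in the same order, lower with IL-33 (-0.57) and higher with IL-13 added to IL-33 (1.41) or to IL-33 and IL-17A (1.57). Cst7, or cystatin F, which inhibits Ctsc and other cysteine cathepsins, had 6.16, 5.39, 4.64, 10.3 and 10.3 TPM and was higher with IL-13 in both comparisons (0.82 and 0.999). Ctla2a, which resembles a cathepsin propeptide and inhibits cysteine cathepsins, went from 164 TPM untreated to 218 with IL-33 (0.40) and 269 with the triple combination (0.71).

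Among the other lysosomal hydrolases, as over all genes, more calls were lower than higher. Of 41 tested, 2 were higher and 7 lower with IL-33, and 1 was higher and 24 lower when IL-13 was added to IL-33, which became 6 and 14 with median-ratio scaling and 1 and 7 with the set term. On top of IL-33 and IL-17A, IL-13 gave 1 higher and 8 lower, against 6.7% and 9.14% of all genes. Arsb, a sulfatase that degrades dermatan and chondroitin sulfate, had 17.1 TPM untreated, 11.6 with IL-33, 9.06 with IL-17A added, 8.05 with IL-13 added and 7.50 with both (-0.52 for IL-33 and -1.09 for the triple combination). Lipa, the acid lipase, went from 149 to 109 TPM with IL-33 and had 99.4 with the triple combination. Ids, a sulfatase for heparan sulfate, had -0.41 when IL-13 was added to IL-33, or -0.13 with the set term, where it did not pass.

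Of 27 lysosomal membrane proteins, 5 were higher and 3 lower with IL-33, and 1 was higher and 15 lower when IL-13 was added to IL-33, which became 3 and 9 with median-ratio scaling and 1 and 5 with the set term. Mcoln2, a lysosomal cation channel, went from 3.77 TPM untreated to 6.16 with IL-33 (0.59) and 8.22 with the triple combination (0.95). With IL-33, Slc15a3, a peptide transporter, was higher by 0.53 and Slc11a2, an iron transporter, by 0.50. Gpnmb, a glycoprotein of late endosomes, had -0.47 when IL-13 was added to IL-33.

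Of 24 sorting proteins and MiT/TFE factors, 1 was higher and 2 lower with IL-33, and 1 was higher and 10 lower when IL-13 was added to IL-33 (4 and 8 with median-ratio scaling, 1 and 2 with the set term). Tfec, the MiT/TFE factor found mostly in macrophages, was the one that rose, from 0.541 TPM untreated to 3.14 with IL-33 (1.43), with 6.15 when IL-13 was added (0.79) and 6.54 with both. Tfeb had -0.26 in the triple combination, a call lost with median-ratio scaling (-0.16). The sorting receptor Sort1, the phosphotransferase subunit gene Gnptab and the nutrient-sensing partner Fnip2 had -0.46, -0.42 and -0.40 when IL-13 was added to IL-33. With the set term Sort1 still passed (-0.48), and Gnptab (-0.14) and Fnip2 (-0.23) did not.

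Of 8 tested extracellular matrix genes whose proteins cathepsins can cut, 1 was higher and 4 lower with IL-33. In the triple combination the counts were 1 and 7, against 12.6% and 30.1% of all genes, or 1 and 6 with median-ratio scaling, against 19.7% and 19.1%. Decorin, Dcn, a collagen-binding proteoglycan, was the exception, at 129 TPM untreated, 252 with IL-33 (0.97) and 319.6 with the triple combination (1.31). Col1a1, the main chain of type I collagen, went from 6107 ± 630.0 to 3189 ± 251 TPM between untreated and triple-combination cultures, and Fbn1, or fibrillin, from 91.5 to 49.7 TPM. Bgn, or biglycan, went from 3187 to 2246 TPM. Ctsk fell in the same cultures in which the summed fibroblast markers were lowest, although 3 of those 12, Dcn among them, were called higher. Whether the share of fibroblasts differed was not measured. Markers of osteoclasts or multinucleated giant cells, looked at because Ctsk and Atp6v0d2 are among the genes of those cells, were low: Itgb3 went from 5.83 TPM untreated to 15.8 with the triple combination and was higher in every comparison other than the interaction, Nfatc1 was lower when IL-13 was added to IL-33 (-0.37) and in the triple combination (-0.33), and Acp5, at 7.54 to 9.02 TPM, passed in none. Their part in the values of Ctsk and Atp6v0d2 was not tested.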

How the data were processed

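RNA-seq was analysed for 15 libraries, 3 in each of 5 groups. The authors deposited TPM for 18078 genes per library; per the submitters' processing notes, HISAT2 and the mm10 build were used, while the sources used here give no version, counting tool or use of strand. In each library, 89.8% to 91.3% of low TPM values, multiplied by gene span, were whole reads within 0.02. Depth was 10554596 to 15123269.7 recovered reads, and the lowest members rest on under 100 reads. Lengths and overlaps came from GENCODE vM21, where all 31 members had the files' start and end.

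Differences were fitted with limma 3.58.1 in R 4.3.3 (trend and robust) on log2(TPM + 1) over all 15 libraries and group means, for 13887 genes with at least 1 TPM in at least 3 libraries (4191 left out), with Benjamini-Hochberg adjustment over all of them. The main alternatives were median-ratio scaling, a term for the low-mitochondrial set, another pseudocount, other filters, no trend, only the compared groups and each library left out. After the data were seen, limma-voom on recovered reads and the libraries outside the set alone were added. The fit was checked on simulated data.

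The members, the gene lists and the set of libraries were chosen with earlier results of these data known. Values of every library are given for members called with a difference of at least 0.5 on the log2 scale and for the paralogs of such members; the members named as chosen after their values were seen are exceptions. From each list, at most the 4 called genes with the largest difference were named, with Tfeb, Lyz2, Mcpt8, S100a8, Csf3r, Nfatc1, Cd68, Itgb3, Acp5 and the genes that overlap members added after their values were seen.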

Additional observations from a re-analysis of the deposited data

How the results depend on the processing

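Counts of members called as higher or lower depended on the scaling and on single libraries. For IL-33, higher calls went from 2 to 4 with the set term and outside the set and 5 on recovered reads; lower calls went from 5 to 2 with only the compared groups or median-ratio scaling and 3 on recovered reads. For IL-17A added to IL-33, the 1 higher call became 0 with only the compared groups and with the set term, 3 with median-ratio scaling and 6 on recovered reads. For IL-13 added to IL-33, higher calls went from 4 to 7 with median-ratio scaling and 8 on recovered reads, and lower calls from 6 to 1, 3 and 1 with median-ratio scaling, the set term and recovered reads. For IL-17A added to IL-33 and IL-13, the 1 higher call became 0 with only the compared groups and the set term and 3 with median-ratio scaling and recovered reads, and median-ratio scaling gave 1 lower call against 0. For IL-13 added to IL-33 and IL-17A, higher calls went from 3 to 5 on recovered reads and lower calls from 7 to 2 with only the compared groups. Outside the set, the group with IL-33 and IL-17A keeps 1 library, so calls in its comparisons are not counted there. Over all 13887 genes, IL-33 had 794 higher and 1107 lower calls outside the set. With only the compared groups it had 679 and 879. In that setting IL-17A had 237 and 283 over IL-33, and 296 and 278 over IL-33 and IL-13. IL-13 over IL-33 and IL-17A had 371 and 417 there. The interaction had no call, but 1 higher and 4 lower on recovered reads. Lower calls of the triple combination went from 10 to 3 with median-ratio scaling and recovered reads. Shares of all genes moved too. On recovered reads, 7.92% were higher and 6.99% lower for IL-33, and 17.1% and 17% for IL-13 added to IL-33. With the set term these were 7.3% and 12%, and 4.75% and 5.48%. The set term gave 2.66% and 3.36% for IL-17A over IL-33, and 1.72% and 2.35% over IL-33 and IL-13. Recovered reads gave 9.69% and 9.33% for IL-13 over IL-33 and IL-17A, and 20% and 19.7% for the triple combination. The causes were not tested.

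Leaving out each library in turn gave, for higher and lower calls, 2 to 2 and 2 to 4 for IL-33, 0 to 4 and 0 to 1 for IL-17A added to IL-33 (4 without replicate 1 of IL-33 with IL-17A, 0 without each other library), 3 to 4 and 3 to 4 for IL-13 added to IL-33, and 0 to 4 and 0 to 2 for IL-17A added to IL-33 and IL-13 (4 without replicate 1 of the triple combination). It gave 3 to 5 and 3 to 9 for IL-13 added to IL-33 and IL-17A (3 lower without replicate 3 of the triple combination), 0 to 3 and 0 to 4 for the interaction (3 and 4 without replicate 1 of the triple combination) and 6 to 7 and 7 to 10 for the triple combination against untreated. Over all 13887 genes, calls also changed with these omissions. The interaction had 1474 higher and 807 lower without replicate 1 of the triple combination, against 22 and 25 in the full fit. Without replicate 1 of IL-33 with IL-17A it had 1990 and 1048. Adding IL-17A to IL-33 without that replicate gave 972 and 2085 (full fit 491 and 864). Adding IL-17A to IL-33 and IL-13 gave 1001 and 961 without replicate 1 of the triple combination (full fit 472 and 562). No single-gene result changed sign under an alternative run where the main or the alternative fit called it. Sign changes without a call in either fit were not counted. Of 210 single-gene results, 184 stayed on their side of the threshold with median-ratio scaling, 197 with the set term and 172 on recovered reads. At 2 to 11 reads, Ctsw is limited by depth. No paired analysis was possible because the labels give no replicate numbers.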
